A study of Mus musculus with 46 samples.

Results

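B1 elements are short interspersed repeats (SINEs) that descend from 7SL RNA, the RNA of the signal recognition particle, and are the mouse relatives of human Alu elements. RNA polymerase III can transcribe a B1 copy from promoter boxes inside the element, the A box and the B box, and copies that lie in genes are also carried in the introns and untranslated regions (UTRs) of RNA polymerase II transcripts. B1 RNA can fold back on an inverted neighbour to form double-stranded RNA, which MDA5 and PKR can bind, and for this reason it is often measured where chromatin regulators have been removed.

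The set described here holds every B1 locus (class SINE, family Alu) of the deposited repeat table whose log2 value averaged at least 2 over the 4 libraries. The members were chosen by that level alone, so it is given as a description. It was reached by 14567 of 574557 B1 loci (2.54%), against 103654 of 5147736 repeat loci of all classes (2.01%). Members just inside the limit averaged 2.0009, 2.0010 and 2.0012, and the loci just outside it averaged 1.9992, 1.9990 and 1.9990. Of the B1 loci, 252030 (43.9%) were not at 0 in all 4 libraries.

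The 4 libraries came from B16F10 cells, a mouse melanoma line, with no treatment. In 2 of them the cells carried a guide RNA against Arid1a (sgArid1a), whose product binds DNA within SWI/SNF, a complex that moves nucleosomes, and in 2 a scrambled control guide (sgScramble). The control columns of the table are headed sgNT and were matched to the sgScramble samples by replicate number. The labels do not say whether the sgArid1a cells were a clone or a pool, nor whether replicates were separate cultures, so p-values measure only the spread between these samples, which may be technical. The labels name the molecule total RNA, while the library kit they name selects mRNA; the part of either in the results was not tested. Cultures of the same 2 genotypes sequenced as polyA RNA, 2 libraries each, were compared for genes. They were fitted together with polyA libraries of cells labelled as additional Cgas or Sting knockouts. Those libraries entered the level filter and the estimate of the spread, and so every p-value for genes.

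Header totals were 73.0 and 71.9 M reads in sgArid1a libraries, against 62.6 and 62.9 M in sgScramble libraries. In the polyA cultures Arid1a had log2 values of 10.43 and 10.39 in sgArid1a cells, against 10.90 and 11.08 in sgScramble cells, a difference of -0.58 ± 0.11 (SE, limma adjusted p = 0.0043). Melanocyte markers were high in those cultures, with Tyrp1 at 16.40 and 16.60 in sgArid1a cells and 17.07 and 16.79 in sgScramble cells, and the immune genes Ptprc and Cd3e were listed at 0 in both. The Arid1a gene holds 6 B1 members, all in introns. Their log2 differences ran from -0.22 to 0.51, 5 of 6 were positive and none was called, as with the 17 repeat loci of all classes there. The repeat table therefore gave no check of the guide in the 4 libraries themselves.

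The following sequences show what the measured copies look like. They are 5′ to 3′ on the strand of the element, and capitals mark matches to the A box (TGGC, 2 bases of any kind, A, 1 base of any kind, GCC) and to the B box (GTTCGA, 2 bases of any kind, CC). Only copies that lie wholly inside an exon of a noncoding GENCODE vM21 transcript (GRCm38, the same assembly as mm10) and touch no UTR or coding sequence could be read, which was the case for 1420 members and for 11143 B1 loci in all. None of the loci that changed was among them.
Taf1d, B1_Mus1, chr9:15316099-15316243, plus strand, the member with the highest level: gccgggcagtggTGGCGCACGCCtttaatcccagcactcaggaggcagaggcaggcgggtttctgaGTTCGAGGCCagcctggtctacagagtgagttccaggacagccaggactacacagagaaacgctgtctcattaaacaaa
Malat1, B1_Mus1, chr19:5801969-5802116, minus strand, the least diverged readable member of the subfamily with most members: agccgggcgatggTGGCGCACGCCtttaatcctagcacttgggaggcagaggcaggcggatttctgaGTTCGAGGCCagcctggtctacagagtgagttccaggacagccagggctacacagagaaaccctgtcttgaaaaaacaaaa
Smg5, B1_Mus2, chr3:88352566-88352702, plus strand, the least diverged readable B1_Mus2 member: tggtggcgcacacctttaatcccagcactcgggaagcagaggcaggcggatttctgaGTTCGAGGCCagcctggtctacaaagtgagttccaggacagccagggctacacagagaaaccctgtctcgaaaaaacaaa
Psmd3, PB1D10, chr11:98691704-98691822, plus strand, the least diverged readable PB1D10 member: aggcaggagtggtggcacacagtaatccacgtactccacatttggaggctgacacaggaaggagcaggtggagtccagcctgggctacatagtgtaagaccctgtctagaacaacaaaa
Cct6a, PB1D9, chr5:129846134-129846230, plus strand, the member with the second highest level: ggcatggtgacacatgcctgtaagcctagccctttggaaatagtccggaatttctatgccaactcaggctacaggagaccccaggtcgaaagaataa

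The Taf1d and Malat1 copies hold both boxes, with the A box starting at base 13 and 14 and the B box at base 67 and 68, and were 90.5% identical over their alignment. The Smg5 copy holds the B box letters only. The Psmd3 and Cct6a copies, of the older PB1D subfamilies and 17.3% and 30.9% diverged from their consensus, hold neither.

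Intact promoter letters were uncommon in the copies that could be read. Among the readable members, 9.51% held the A box letters, 5.77% the B box letters and 2.25% both, searched on the element strand, where the 2 motifs do not overlap. Among all readable B1 loci these shares were 10.2%, 8.33% and 3.23%. Short fragments are included in these shares. Among the 557 readable members of at least 130 bases they were 16.2%, 11.7% and 5.57%. Among all readable B1 loci of that length they were 20.1%, 17.9% and 8.11%. By subfamily the order differed: both boxes stood in 2 of 55 readable B1_Mm members (3.64%), against 83 of all 507 readable B1_Mm loci (16.4%). For B1_Mus2 they stood in 8 of 109 members (7.34%), against 11.9% of all its readable loci, and for B1_Mus1 in 18 of 170 members (10.6%), against 9.28%. A match is only a match of letters, and a copy without it may still carry a degenerate box.

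The 15 subfamilies with at least 5 members each contributed between 370 (PB1) and 1859 (B1_Mus1) of them, and 1 member was a FAM element. The share of loci that became members was highest for PB1D9, at 4.28%, and was 1.45% for B1_Mm, 1.87% for B1_Mus2 and 1.96% for B1_Mus1. Members of these last subfamilies were more diverged than their subfamily as a whole. The median divergence from the consensus was 8.8% in B1_Mm members against 6.2% in all B1_Mm loci, 12.0% against 7.5% for B1_Mus2 and 11.4% against 8.6% for B1_Mus1. For PB1D9 it was 21.1% and 21.2%. Over all B1 loci 1.09% of copies under 5% divergence were members, against 3.34% of copies with 15 to 20%. In introns these shares were 0.89% and 3.63%, while in UTRs they were 39.1% and 48.7%. The share did not keep rising with divergence. At 30% or more it was 2.02% over all B1 loci, 2.54% in introns and 36.5% in UTRs. How reads that match several copies were handled is not given in the sources used here, and its part in these shares was not tested.

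B1 loci in exons were members more often than those in introns or outside genes. Of the B1 loci in UTRs, 47.4% on the strand of the gene and 40.9% on the opposite strand were members. In exons of noncoding transcripts the shares were 14.2% and 11.3%, in introns 3.33% and 2.36%, and outside GENCODE genes 0.456%. Loci were assigned by their midpoint. Copies on the opposite strand were thus often members too. Coding exons hold few B1 loci: 16 of 99 on the opposite strand were members (16.2%), against 6 of 44 on the strand of the gene (13.6%). The HOMER command in the file header sets no strand option, so a locus value does not separate RNA of the element from RNA read across it on the other strand.

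**Figure D1:**
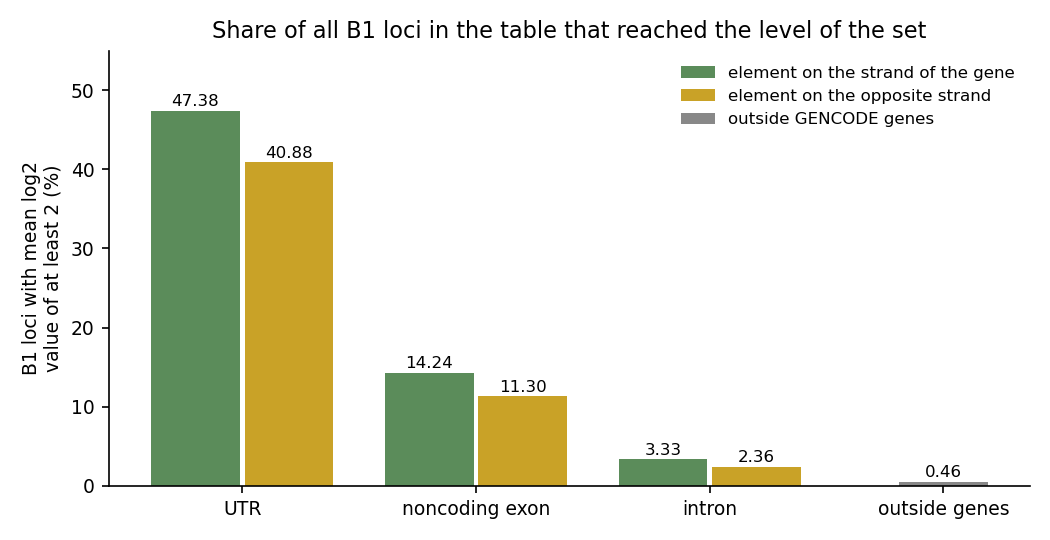
Share of all B1 loci in the repeat table whose mean log2 value over the 4 libraries was at least 2, in percent, by GENCODE feature; green bars are elements on the strand of the gene, yellow bars elements on the opposite strand and the grey bar loci outside genes. UTR copies reached this level in 47.38% and 40.88% of cases, intron copies in 3.33% and 2.36%, and copies outside genes in 0.46%.

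Introns nonetheless held most members, since 311541 of all B1 loci lie in introns and 6939 in UTRs. Of the members, 8762 members (60.2%) were in introns, 2967 (20.4%) in 3′ UTRs, 103 in 5′ UTRs, 1604 in noncoding exons, 22 in coding exons and 1109 outside GENCODE genes. Measured against the gene spans of the deposited gene tables, 2087 members lay outside genes, and 822 of them (39.4%) had a gene of the same strand ending within 5000 bases upstream, against 6.07% of all B1 loci outside genes. Level and feature moved together. Of 8813 members with a mean between 2 and 3, 7.3% were in UTRs and 74.0% in introns, whereas of the 130 members with a mean of at least 8, 86.2% were in UTRs. Members were spread over 5174 genes, of which 2428 held a single member and 160 held at least 10. The predicted gene Gm20388 held 42, G3bp1, which encodes a stress granule protein, 31, Gm26551 30 and Fam120a 28. On chromosome 11, 4.15% of B1 loci were members, on chromosome X 0.848%.

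The highest member of all lies in Taf1d, which encodes a subunit of the TBP complex that starts ribosomal RNA synthesis and whose introns carry small nucleolar RNAs. Its log2 value was 10.86 and 10.66 in sgArid1a libraries, against 10.88 and 11.05 in sgScramble libraries. The sgArid1a values lay below both sgScramble values, but by less than the test could tell from the spread (-0.20 ± 0.16, SE, limma adjusted p = 0.807). The B1_Mus1 copy next to it, at chr9:15315935-15316079, has the same sequence at all 145 bases. Its values were 9.47 and 9.47 in sgArid1a libraries and 9.51 and 9.77 in sgScramble libraries. The 2 identical copies thus differed by 1.20 to 1.39 on the log2 scale in each of the 4 libraries. Copies at 15315812 and 15316264 flank this pair, with means of 9.17 and 8.33, so that 4 B1 elements in a row stood at a mean above 8 there.

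Cct6a, which encodes a subunit of the TRiC chaperonin, holds the member with the second highest level, a PB1D9 fragment of 97 bases. Its values were 10.82 and 10.70 in sgArid1a libraries, against 10.72 and 11.01 in sgScramble libraries, and the groups overlapped. The Malat1 copy, in a long noncoding RNA of nuclear speckles, had 10.09 and 10.12 in sgArid1a libraries, against 9.72 and 9.87 in sgScramble libraries. These groups did not overlap, yet the difference was not called (0.30 ± 0.16, SE, limma adjusted p = 0.676). The other members among the 8 highest were in an intron of Bloc1s5, which encodes a subunit of a complex that builds melanosomes, and in the 3′ UTRs of Scd2 (a fatty acid desaturase), Ccng1 (cyclin G1), Pclaf (a PCNA-binding protein) and Kif5b (a kinesin heavy chain), with means between 10.02 and 10.39. Of the 8, only the Ccng1 copy was called. Per 100 bases of element the Taf1d, Cct6a and Bloc1s5 copies had mean log2 levels of 10.33, 10.86 and 10.44.

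No B1 subfamily passed the test between sgArid1a and sgScramble cells. Averaged over the loci of each subfamily, log2 differences between sgArid1a and sgScramble ran from 0.0015 for B1_Mus1 to 0.029 for PB1D11. None of the 15 subfamilies was called by limma or had an unadjusted p under 0.05, and of 839 repeat subfamilies of all classes 0% were called and 70 had an unadjusted p under 0.05. B1_Mus1 averaged 3.21 and 3.17 in sgArid1a libraries, against 3.17 and 3.21 in sgScramble libraries, with a 95% interval of the difference of ± 0.088. PB1D11 averaged 3.27 and 3.26 in sgArid1a libraries, against 3.19 and 3.28 in sgScramble libraries, with an interval of ± 0.10. The deposited log2 scale draws low values together, so changes of weakly covered copies are understated in these means. In cultures, fewer cells with B1 RNA and less B1 RNA per cell cannot be told apart.

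**Figure D2:**
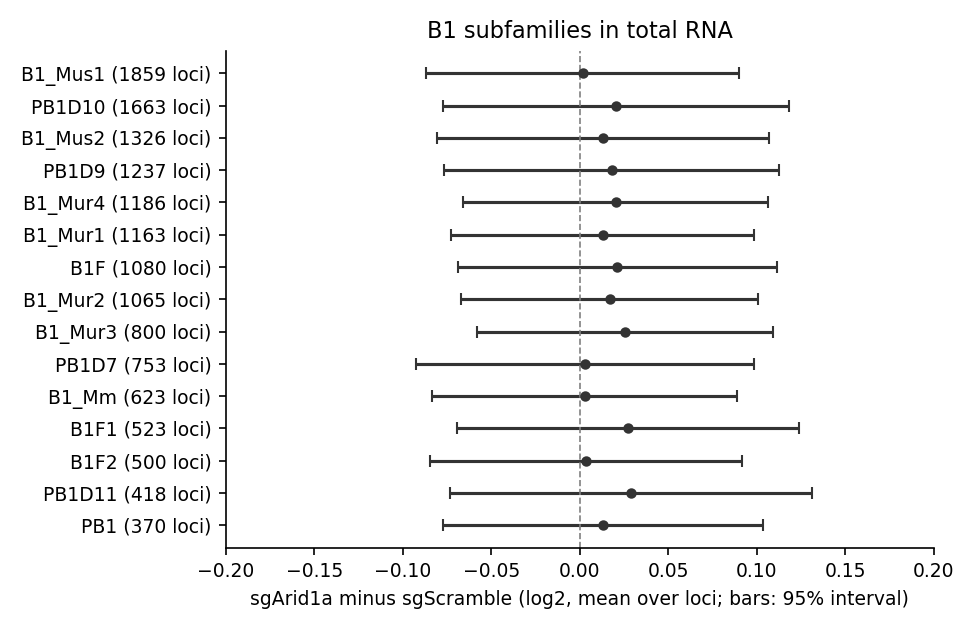
Log2 difference, sgArid1a minus sgScramble, of the mean over member loci for each B1 subfamily (points) with its 95% interval from limma (bars); the number of loci stands beside each name. All 15 points lie between 0.0015 and 0.029 and every interval includes 0.

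Few single B1 loci were called, and the test could seldom call a moderate change. In the simulated data used to test the scripts, 4% of planted log2 differences of 0.5 were called, and 82% of those of 1. Of the 14567 members, 31 were called by limma (0.213%), against 0.369% of all 103654 repeat loci tested. Of these, 9 were higher in sgArid1a libraries (background 0.107% of all loci) and 22 lower (background 0.262%). Both sgArid1a values lay above both sgScramble values at 2940 members (20.2%, background 20.9%) and below both at 2386 (16.4%, background 16.3%). The median difference was 0.020 over B1 members and 0.021 over all loci. The authors' deposited table gives an adjusted p under 0.05 to 13 members with lower values (background 0.0965%) and to 0 with higher values (background 0.0241%). There, 83 members (0.57%) had an unadjusted p under 0.05 with a higher value and 135 (0.927%) with a lower one, against 0.901% and 1.19% of all loci.

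**Figure D3:**
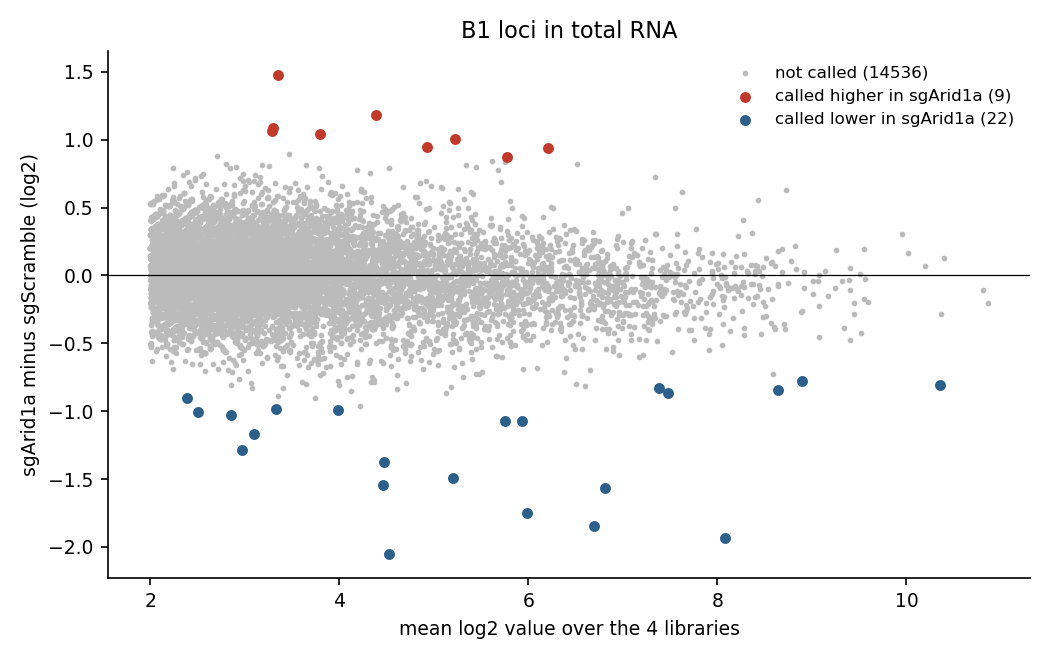
Log2 difference, sgArid1a minus sgScramble, of each of the 14567 B1 members against its mean log2 value over the 4 libraries; red and blue points are the 9 loci called higher and the 22 called lower in sgArid1a cells at a limma adjusted p under 0.05, grey points the other 14536. The called falls reach -2.05 and the called rises 1.48.

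Features differed in their medians. The median difference was -0.046 over the 3070 members in UTRs and 0.042 over the 8762 in introns, and over all repeat loci it was -0.039 in UTRs and 0.039 in introns. The median level of UTR members stood above that of intron members by 1.93 and 1.84 in sgArid1a libraries, and by 1.94 and 1.98 in sgScramble libraries. Both sgArid1a gaps were smaller than both sgScramble gaps, and this was not tested. Within UTRs the tilt was seen on both strands, with medians of -0.038 on the strand of the gene and -0.057 on the opposite strand. By level, UTR members with a mean between 2 and 3 had a median of -0.004, and those between 6 and 8 one of -0.083.

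Of the 22 loci that fell, 16 were in 3′ UTRs and 6 in introns. That is 0.521% of the 3070 B1 members in UTRs, against 0.832% of the 12984 repeat loci of all classes in UTRs, and 0.0685% of B1 members in introns, against 0.127% of all repeat loci there. The 22 loci belonged to 17 genes, and 11 stood on the strand of the gene and 11 against it. The largest fall was at a B1_Mus2 copy in the 3′ UTR of Trpm1 (chr7:64218608-64218744), which encodes melastatin, a cation channel of melanocytes. Its log2 values were 3.64 and 3.36 in sgArid1a libraries, against 5.32 and 5.78 in sgScramble libraries. The groups were far apart, with a difference of -2.05 ± 0.22 (SE, limma adjusted p = 1.49e-06). The authors' deposited table gives -3.25 on its own log2 scale, with an adjusted p of 1.08e-05. A B1_Mur4 copy in a Trpm1 intron also fell, by 0.90, but its adjusted p in the authors' deposited table was not under 0.05. In the polyA cultures Trpm1 itself had 7.78 and 7.93 in sgArid1a cells, against 10.08 and 10.16 in sgScramble cells, a difference of -2.27 ± 0.10 (SE, limma adjusted p = 2.51e-08).

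All 4 members in the 3′ UTR of Gxylt2, which encodes a xylosyltransferase that modifies EGF repeats such as those of Notch, fell. The strongest, a B1_Mur1 copy at chr6:100809557-100809691, had 7.26 and 6.98 in sgArid1a libraries, against 9.04 and 9.07 in sgScramble libraries (-1.94 ± 0.18, SE, limma adjusted p = 3.85e-07). The others, starting at 100808190, 100809382 and 100806534, differed by -1.84, -1.75 and -1.37. The authors' deposited table gives the last of these an adjusted p of 0.0575. The 4 copies lie in the GENCODE 3′ UTR of 1 gene and so are not taken as independent of each other. Their midpoints lie 1520 to 4543 bases past the end of Gxylt2 in the deposited gene table, on the same strand. The gene value given below therefore does not include them, and whether they share 1 transcript was not tested. The copies are of 3 subfamilies and range in divergence from 5.5% to 26.7%. Gxylt2 in the polyA cultures had 9.03 and 8.98 in sgArid1a cells, against 10.25 and 10.14 in sgScramble cells, a difference of -1.19 ± 0.10 (SE, limma adjusted p = 5.79e-06).

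Copies in the 3′ UTRs of Ttyh2 and Ripor2 followed in the size of the fall. A PB1D9 copy in Ttyh2 had 6.23 and 5.82 in sgArid1a libraries, against 7.52 and 7.66 in sgScramble libraries, and fell by 1.56. A B1F2 copy in Ripor2, which encodes an inhibitor of RhoA and is listed as Fam65b in the gene table, had 3.71 and 3.66 in sgArid1a libraries, against 5.37 and 5.09 in sgScramble libraries, and fell by 1.54. Both genes were also lower in the polyA cultures, by 0.58 ± 0.11 and 0.79 ± 0.11 on the log2 scale.

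In Plaur, which encodes the urokinase receptor, the copy fell and the gene was not called. This B1_Mur2 element (chr7:24475832-24475977) had 4.41 and 4.50 in sgArid1a libraries, against 5.895 and 6.002 in sgScramble libraries (-1.50 ± 0.20, SE, limma adjusted p = 0.000108). The Plaur gene had 6.73 and 6.90 in sgArid1a polyA cultures, against 6.67 and 7.01 in sgScramble ones, and the groups overlapped (-0.02 ± 0.13). The Ccng1 copy had 9.92 and 9.99 in sgArid1a libraries, against 10.70 and 10.82 in sgScramble libraries (-0.81 ± 0.16, SE, limma adjusted p = 0.0112), while the Ccng1 gene differed by -0.09 ± 0.10 and its groups overlapped. The Ccng1 call was lost without sgScramble replicate 1 (-0.86) or without sgScramble replicate 2 (-0.75). The difference between locus and gene was not tested, since the tables were normalized separately.

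Among the intronic falls, a B1_Mus1 copy in Oca2, which encodes a melanosome membrane protein of pigmentation, had 2.52 and 2.12 in sgArid1a libraries, against 3.624 and 3.598 in sgScramble libraries (-1.29 ± 0.22, SE, limma adjusted p = 0.0019), and the Oca2 gene was lower by 0.93 ± 0.11. The other intronic falls were in Tmem179, Brca1, Muc13, Sfi1 and the Trpm1 copy above. None of the intronic falls had an adjusted p under 0.05 in the authors' deposited table, which gives 0.419 for the Oca2 copy. The remaining 3′ UTR falls were in Cgref1, Nwd1, Cdk6, Apold1, Eogt and Fam198b, and lay between -1.03 and -0.78. Of these, the copies in Cgref1, Nwd1 and Cdk6 also had no adjusted p under 0.05 there. Fam198b held 5 members, all negative, of which 2 fell.

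**Figure D4:**
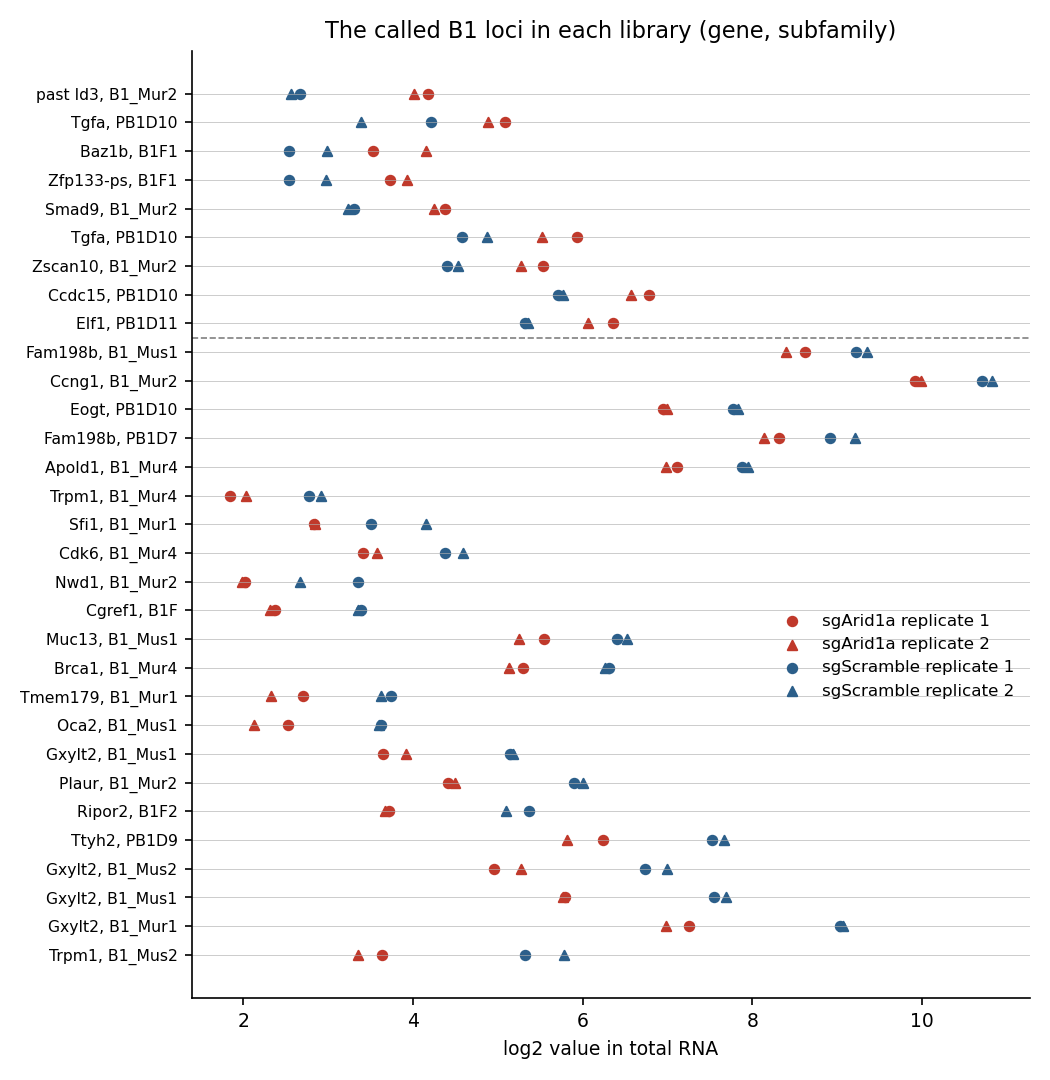
Log2 value of each of the 31 called B1 loci in each total RNA library, labelled by gene and subfamily, with sgArid1a in red and sgScramble in blue, circles for replicate 1 and triangles for replicate 2; loci above the dashed line were called higher in sgArid1a cells. The groups overlap at no locus, and the values run from 1.85 to 10.82.

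The largest rise was outside annotated genes. A B1_Mur2 copy on chromosome 4 (chr4:136145830-136145987, plus strand) had 4.17 and 4.01 in sgArid1a libraries, against 2.67 and 2.56 in sgScramble libraries (1.48 ± 0.21, SE, limma adjusted p = 0.000208). Its midpoint lies 516 bases past the end of Id3 in the deposited gene table, on the same strand. Id3 encodes an inhibitor of basic helix-loop-helix factors. In the polyA cultures Id3 moved the other way, with 7.40 and 7.16 in sgArid1a cells, against 7.58 and 8.13 in sgScramble cells (-0.58 ± 0.16, SE, limma adjusted p = 0.0308). The rise of this copy was called without each of the 4 libraries in turn. In the authors' deposited table its log2 fold change is 3.93 with an adjusted p of 0.147.

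Of the other 8 rises, 5 were in 3′ UTRs and 3 in introns. That is 0.163% of B1 members in UTRs, against 0.185% of the repeat loci of all classes there. In introns it is 0.0342% of B1 members, against 0.0727% of all repeat loci. In Tgfa, which encodes a ligand of the EGF receptor, both members rose: the PB1D10 copy at chr6:86273496-86273602 had 5.08 and 4.89 in sgArid1a libraries, against 4.22 and 3.38 in sgScramble libraries (1.18 ± 0.24, SE, limma adjusted p = 0.0123), and a second PB1D10 copy rose by 1.004 ± 0.21. The Tgfa gene was higher in sgArid1a polyA cultures by 0.46 ± 0.13. A PB1D10 copy in the 3′ UTR of Ccdc15 rose by 0.94 ± 0.20 and the gene was higher by 0.59 ± 0.13. The B1_Mur2 copy in Smad9, which encodes a transducer of BMP signals, rose by 1.04 ± 0.21, and its gene differed by 0.16 ± 0.12. The others were a PB1D11 copy in Elf1 (an ETS factor) and intronic copies in Baz1b (a chromatin remodelling subunit), Zfp133-ps and Zscan10 (a zinc finger protein). None of these 8 rises had an adjusted p under 0.05 in the authors' deposited table.

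Most of these calls were lost when 1 library was left out, while the differences stayed positive. Such a fit has 1 library in a group, so a lost call does not show what the missing library contributed. The Elf1 copy was not followed in these runs. Without sgArid1a replicate 1 the calls were lost for Ccdc15 (0.83), Smad9 (0.98), the second Tgfa copy (0.80) and Zscan10 (0.81), and without sgArid1a replicate 2 for Baz1b (0.77) and Zfp133-ps (0.96). Without sgScramble replicate 1 they were lost for Baz1b (0.86), Ccdc15 (0.91), the second Tgfa copy (0.85), Zfp133-ps (0.84) and Zscan10 (0.88), and without sgScramble replicate 2 for the first Tgfa copy (0.77). The 8 largest falls were called without each library in turn. With each library centred on its median locus, 2 members were called higher and 17 lower, against 9 and 22 as deposited.

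**Figure D5:**
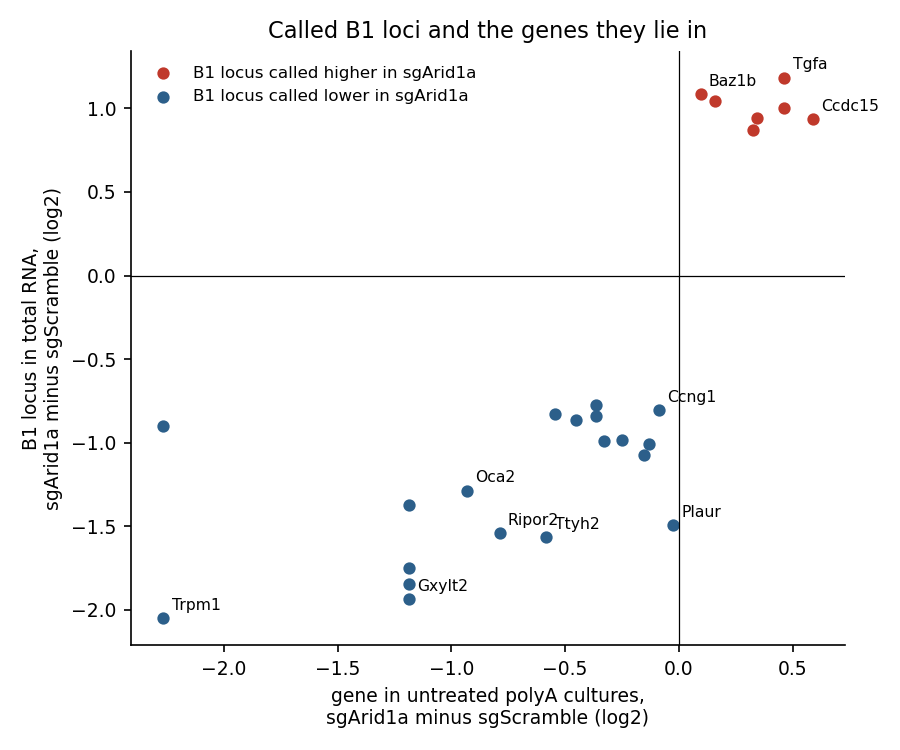
Log2 difference, sgArid1a minus sgScramble, of the called B1 loci in total RNA (vertical axis) against that of the gene each lies in, in untreated polyA cultures (horizontal axis); red loci were called higher and blue loci lower. All plotted genes lie on the same side of 0 as their locus, from Trpm1 at -2.27 to Ccdc15 at 0.59, with Plaur at -0.02.

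The polyA cultures were not used to choose the loci, so they give a second reading of the genes that hold them. Of the 17 genes with a fallen copy, 14 were tested there, and all 14 had a negative difference. Their median was -0.41, against 0.011 over all genes tested. Of the 14, 8 were called lower (5.98% of 11604 genes tested) and none was called higher. Some of those not called lay near 0, such as Plaur (-0.02 ± 0.13) and Ccng1 (-0.09 ± 0.10). Of the 7 genes with a risen copy, 6 were tested, all 6 were positive and 3 were called higher (5.84% of genes tested). Going the other way, the 207 UTR members in genes called lower in polyA cultures had a median difference of -0.17, and 73.9% of them were negative. Those 207 members lie in 120 genes and include 11 loci called lower, so this view is not separate from the first. The 2684 UTR members in genes that were not called had a median of -0.040, and 57.6% were negative. The 157 in genes called higher had a median of 0.012, and 49.7% were negative. Intron members in genes called lower (390 loci) had a median of -0.018, against 0.047 in genes not called. Across 1920 genes with UTR members, the mean difference of those members and the difference of the gene had a Pearson r of 0.22 and a Spearman rho of 0.12. Across 3202 genes with intron members these were 0.08 and 0.04. These are weak relations across genes, which share libraries and are not independent replicates.

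Genes that make, bind or silence B1 RNA were read in the polyA cultures from lists, which were chosen with earlier results of these data known. Of 24 genes for RNA polymerase III and its factors, 1 was called higher in sgArid1a cells (5.84% of all genes tested were) and none lower (5.98% of all genes tested) by limma. It was Polr3g, which encodes a subunit of the polymerase, at 7.91 and 7.96 in sgArid1a cells, against 7.49 and 7.61 in sgScramble cells (0.38 ± 0.11, SE, limma adjusted p = 0.0421). Of 16 genes for proteins that bind or process B1 or Alu RNA, 4 were higher and none lower. They were Ifih1, which encodes the double-stranded RNA sensor MDA5 (0.68 ± 0.11), Ddx58, which encodes RIG-I (0.66 ± 0.10), Eif2ak2, which encodes PKR (0.43 ± 0.10), and Adar, which encodes an enzyme that edits double-stranded RNA (0.35 ± 0.09). Ifih1 had 7.48 and 7.64 in sgArid1a cells, against 6.92 and 6.84 in sgScramble cells, and the groups did not overlap. Srp9 and Srp14, which encode the proteins that bind the Alu domain, differed by 0.13 ± 0.10 and -0.11 ± 0.10 and were not called. These 4 sensors and editors are also known interferon-response genes. Of 17 genes for chromatin repressors of SINEs, Uhrf1, which encodes a partner of DNA methylation, was the 1 called, at 0.61 ± 0.09. For the polymerase III and repressor lists, 1 gene is near the share over all genes. The list medians were 0.093, 0.12 and 0.18, against 0.011 over all genes tested. Depth was uneven in these cultures, with 20.5 and 20.1 M reads in sgArid1a libraries and 8.68 and 22.8 M in sgScramble libraries. Without sgScramble replicate 2, 7 polymerase III genes and 6 repressors were called, and with either sgArid1a replicate left out, 0 polymerase III genes and 2 RNA-binding genes were called.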

How the data were processed

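STAR 2.5.3a, HOMER and the build mm10 (GRCm38) are named in the submitters' processing notes. Per the file headers, repeats were counted per locus with no strand option, and the authors deposited normalized log2 values, which draw low values together, with their own log2 fold changes and p-values. Divergence is a fraction per the file headers and is printed in percent. Gene values are the authors' deposited log2 values of a table of 8 polyA libraries, including cells labelled as additional Cgas or Sting knockouts. No sample column of these tables was left out.

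The 103654 repeat loci that averaged at least 2 entered 1 fit with limma 3.58.1 (limma-trend, guide as the term, R 4.3.3), and likewise subfamily means (at least 5 loci) and 11604 genes (mean of at least 4, all groups). Benjamini-Hochberg adjustment ran over each whole table, and a feature was called at an adjusted p under 0.05. Features came from GENCODE vM21 with bedtools 2.31.1, and sequences from its transcripts. The scripts were tested on simulated data. Same-numbered replicates did not deviate together (r = -0.0072 over B1 members), so the numbers were not taken as pairs. The design had left room for counts; log2 values were found.

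Members, lists and naming rules were chosen with earlier results of these data known. Named loci are the 8 highest, the 8 largest called rises and falls, those beside the limit and those in Arid1a; other called loci, the Taf1d neighbours, Id3 and the sequences of readable copies were chosen after their values were seen. Errors after ± are standard errors of the log2 difference.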

Additional observations from a re-analysis of the deposited data

How the results depend on the processing

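No B1 subfamily was called under any alternative run, and the median B1 difference (0.0199 as reported) ran from -0.0165 to 0.0432. Against 9 loci called higher and 22 lower, the counts were 4 higher at a mean of at least 1, 20 and 35 at a mean of at least 3, 2 higher with centred libraries, and 0 and 13 by the authors' adjusted p (12 of the 13 shared). With no filter limma called 0 in either direction, with 1734 higher and 1538 lower at an unadjusted p under 0.05. On loci outside the deposited gene spans the counts were 1 and 5. Outside GENCODE genes, an alternative chosen after seeing the data, they were 1 and 0. Leaving out 1 library gave 6 to 22 higher (22 without sgScramble replicate 2, 7 of them shared with the 9) and 18 to 30 lower. The replicate block gave 8 and 18, and of the named loci it ended only the call in Ccng1. With 1 library left out, the uncalled differences of the copies in Bloc1s5 (-0.0387 to 0.2974) and Pclaf (-0.0115 to 0.1483) turned negative without sgScramble replicate 1, and that in Cct6a (-0.2487 to 0.0402) turned positive without sgScramble replicate 2. Over the 30 named loci, 52 recomputed values lost a call in the same direction, 17 of them with no filter and 9 by the authors' p. In polyA cultures, only the 4 untreated libraries gave 0 polymerase III and 2 RNA-binding genes, also with the replicate block, which could be fitted only there. Leaving out 1 library gave 0 to 7, 2 to 4 and 1 to 6 genes in the 3 lists. Causes were not tested. The effect of depth on loci near the limit was not measured.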
